A study of Mus musculus with 36 samples.

Results

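The genes described here are the mouse olfactory receptor genes whose symbol is Olfr followed by a number from 543 to 692 with no suffix. The rule found 118 genes among 1107 receptor genes named in the same way and 57010 gene identifiers in all. All 118 lie on chromosome 7 in the annotation used for the names, and 115 are annotated as protein coding. MOR names, a second naming scheme in which receptors are sorted into families by sequence, were found for 114 of them. Of these, 112 belong to families 1 to 42, the family numbers of the class I receptors, so the label held for nearly every named gene. The exceptions were Olfr605, whose synonym is MOR202-22, and Olfr592, listed as MOR0-3. Another 11 receptor genes with a MOR family of 1 to 42 have symbols outside the number range and were not counted as members.

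Class I receptors are the receptors of the fish-like type that mammals have kept, and in the mouse they form a single cluster of genes, while class II receptors make up the rest of the repertoire. Each olfactory sensory neuron transcribes a single receptor gene, and neurons that chose a class I receptor lie mostly in the dorsal part of the olfactory epithelium. Several class I receptors are known to be activated by fatty acids, and some by straight-chain alcohols and aldehydes. When a neuron fires, its ribosomal protein S6 is phosphorylated, so an antibody to phosphorylated S6 (pS6) pulls down ribosomes, and the mRNA on them, more from active neurons than from silent ones. A receptor mRNA that is higher in the precipitate after an odor is read as coming from neurons that were active.

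The samples were olfactory epithelia of wild-type C57BL/6J males aged 8 weeks. The animals were kept singly without odor for 4 h and then had 90 min with 10 µL of odorant on filter paper, while controls had empty paper. The AD set held acetophenone, decanal and their mixture, the OC set held octanal, cis-3-hexenol and their mixture, and the FM set held a floral fragrance, a mint fragrance and their blend, each set with its own no-odor controls. There were 12 groups of 3 biological replicates, 36 libraries in all, and the labels call each set a batch. Acetophenone is an aromatic ketone, octanal and decanal are straight-chain aldehydes of which decanal has the longer chain, and cis-3-hexenol is an unsaturated alcohol. The pure odorants were used undiluted and the binary mixtures held equal parts in the same volume, so a component was present in a smaller amount in the mixture than alone.

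Totals ran from 16039587 to 26388104 counts per library, of which 37701 to 160196 fell on receptor genes and 1130 to 5047 on the 118 genes. Levels are given as counts per 1000000 (CPM) on TMM-scaled library sizes. Omp, the marker of mature olfactory sensory neurons, was at 4014 to 14058 CPM, and it was present in every library. In 4 libraries the share of receptor counts on the 118 genes was under 70% of the lower of the other two in the group: AD mixture replicate 2, OC control replicate 1, OC mixture replicate 3 and floral replicate 3. Of the members with counts in those groups, 76 of 110, 75 of 107, 85 of 108 and 74 of 109 had their lowest value in that library, in the same order of groups. Of 10 dorsal zone genes 5, 4, 6 and 7 had their lowest value of the group there, and of 3 ventral zone genes 1, 0, 3 and 2, in the same order. Nqo1, an enzyme of dorsal zone neurons, was at 228 CPM in AD mixture replicate 2 against 481 and 489.6 CPM in the other AD mixture libraries, and at 48.2 CPM in OC control replicate 1 against 139 and 112 CPM in the other OC controls. It was at 200.02 CPM in OC mixture replicate 3 against 460.0 and 401 CPM in the others of that group, and at 122 CPM in floral replicate 3 against 177 and 189 CPM in the other floral libraries. The part of these 4 libraries in the results below was not tested, and counts of calls are also given without them where the counts moved. Each such fit left out only the low libraries of its own set or sets. In bulk tissue, fewer neurons with a receptor and less RNA per neuron cannot be told apart.

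**Figure D1:**
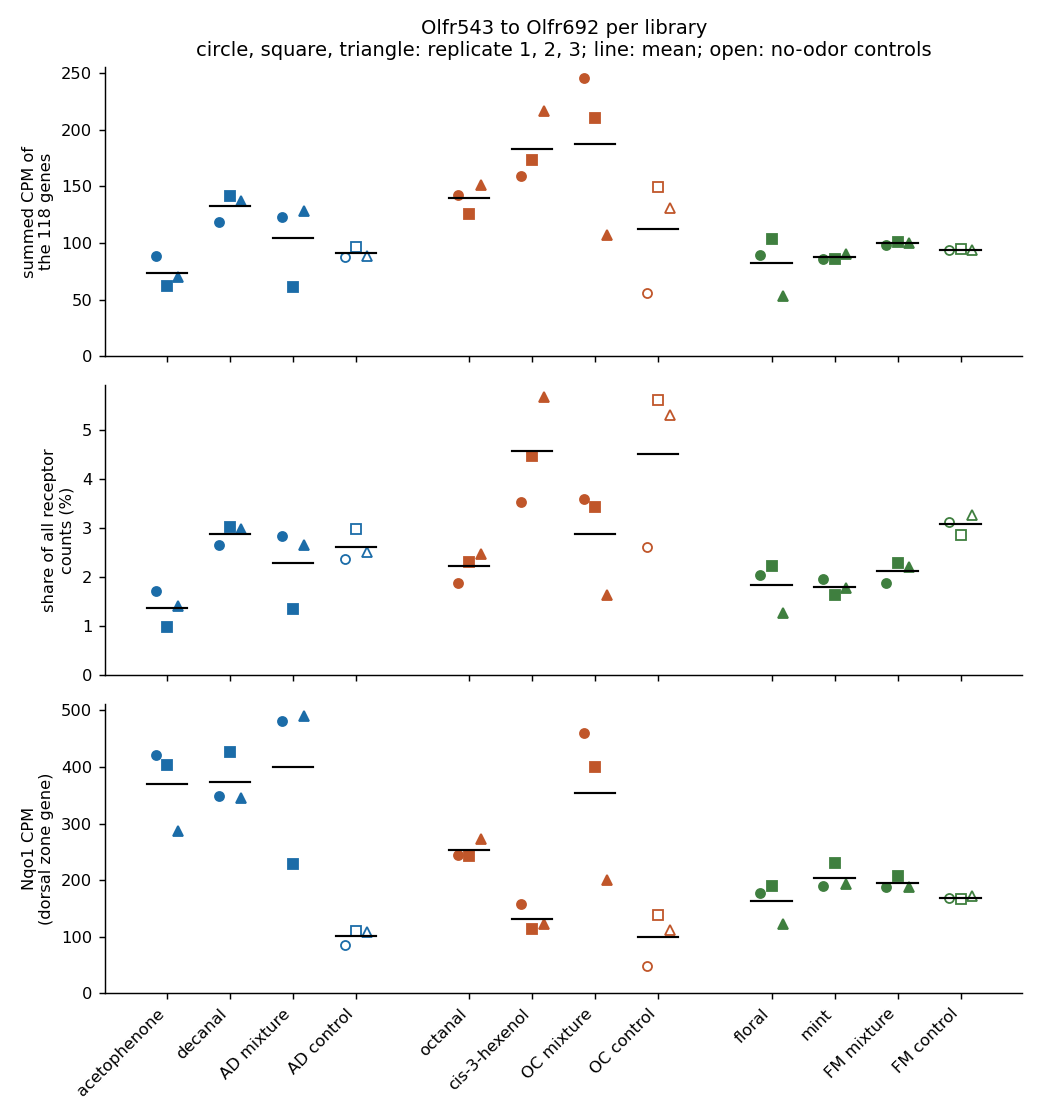
Summed level of the 118 genes (CPM, top), their share of all receptor counts (percent, middle) and the level of the dorsal zone gene Nqo1 (CPM, bottom) in each of the 36 libraries, with the group mean as a line. The 4 libraries low in the 118 genes, with shares of 1.34%, 2.61%, 1.62% and 1.25%, stand apart from the other 2 of their groups in the top panel and are also the lowest of their groups for Nqo1. Msx1, another gene of the dorsal zone list, was the lowest of its group in none of them. Robo2, also of that list, was at 27.1 CPM in AD mixture replicate 2 against 19.9 and 21.8 CPM in the others. Nqo1 differed with odor too, at 228 to 489.6 CPM in the AD odor libraries against 84.8 to 111 CPM in the AD controls, so it is compared only within groups. Acetophenone replicate 2, with the lowest share of all libraries (0.987%), was at 404 CPM for Nqo1.

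Summed over the 118 genes, the level was 62.3 to 88.4 CPM with acetophenone, 118 to 141 CPM with decanal and 61.3 to 128 CPM with the AD mixture, against 87.4 to 96.6 CPM in the AD controls. In the OC set it was 125 to 151 CPM with octanal, 159 to 216 CPM with cis-3-hexenol and 107 to 246 CPM with the mixture, against 56.0 to 149.7 CPM in the OC controls. Every cis-3-hexenol library lay above every control, while octanal and the mixture overlapped the controls. In the FM set it was 52.9 to 104 CPM with floral, 85.5 to 90.8 CPM with mint and 98.1 to 101 CPM with the blend, against 93.4 to 94.9 CPM in the FM controls. Every decanal library lay above every AD control, and every library of the blend above every FM control. As a share of all receptor counts the 118 genes made up 2.21% ± 0.31 with octanal and 4.50% ± 1.64 in the OC controls (mean ± SD, n = 3 each). With mint the share was 1.78% ± 0.16, against 3.07% ± 0.21 in the FM controls, and with acetophenone it was 1.37% ± 0.36, against 2.61% ± 0.31 in the AD controls. It was close to the controls with decanal, at 2.88% ± 0.20, and with cis-3-hexenol, at 4.55% ± 1.08. It was 2.28% ± 0.82 with the AD mixture, 2.88% ± 1.09 with the OC mixture, 1.84% ± 0.51 with floral and 2.12% ± 0.22 with the blend. The denominator moved too: the other receptor genes summed to 5328 to 7462 CPM with octanal against 2087 to 2524 CPM in the OC controls.

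Levels differed among the 118 genes by far more than between groups. Per kilobase of transcript and averaged over the 9 control libraries, the median member was at 0.189 CPM per kb and the median of the other receptor genes was at 0.338 CPM per kb. Olfr672 was the highest, at 2.99 CPM per kb with a range of 1.098 to 5.63 over the controls, followed by Olfr598 at 1.57 CPM per kb. Means of 1 CPM per kb or more were found for 7 members, and means under 0.1 CPM per kb for 36. Counts were 0 in every library for Olfr663 and Olfr688. The filter on low counts passed 82 members among the AD libraries, 91 among those of OC and 83 among those of FM. In all 3 sets 73 passed, and 23 passed in none, so nothing can be said of a response of those 23. Because the filter looks at counts in any group, a member that is high in a single odor group can pass through that group.

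Over the 9 comparisons of an odor with the controls of its set, 16 members were called higher at least once (edgeR quasi-likelihood test, Benjamini-Hochberg adjusted p under 0.05 over all genes tested), 3 were called lower, and 76 were tested and never called. The share of all genes called at least once is not given here, so these pooled counts have no background to be read against. No member was called in more than 4 of the 9. Octanal and its mixture gave the most calls, with 7 members higher and 1 lower of 91 with octanal, against 17.9% and 14.4% of all genes, and 8 higher with the mixture, against 17.7% of all genes. Decanal followed with 4 higher of 82, against 10.8% of all genes. The AD mixture had 2 higher, against 10.9%, and cis-3-hexenol 2 higher, against 2.58%. Acetophenone had 1 higher, against 4.22%. Floral had 1 higher and 1 lower of 83, against 8.70% and 5.35%, and mint 1 higher and 1 lower, against 7.10% and 4.07%. The FM mixture had none, against 9.64% called in either direction. In each of the 9 comparisons the percentage of members called higher was below that of the other receptor genes: 13.9%, 7.89% and 14.4% of other receptors were called higher with acetophenone, decanal and the AD mixture, 23.0%, 8.59% and 24.7% for octanal, cis-3-hexenol and their mixture, and 10.6%, 14.0% and 13.2% with floral, mint and the FM mixture. The difference between the percentages was not tested. The members also had the lower median level, and its part in the percentages was not tested.

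**Figure D2:**
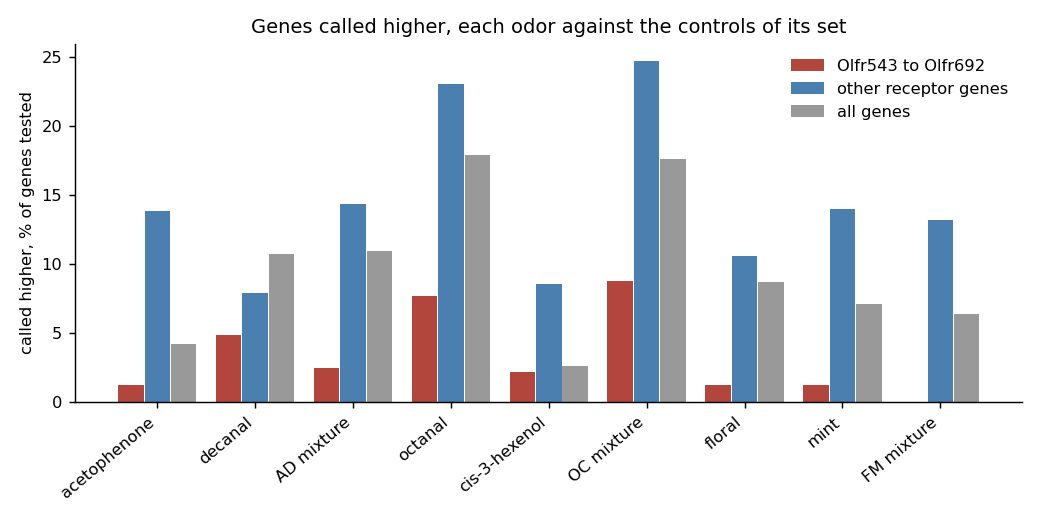
Percent of tested genes called higher (adjusted p under 0.05) for the receptor genes Olfr543 to Olfr692, the other receptor genes and all genes, for each odor group against the no-odor controls of its set. The bar of the members is the lowest of the 3 in each comparison, from 0% with the FM mixture to 8.79% with the OC mixture.

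Olfr653 (MOR33-1) had the smallest p of the members with octanal. It was at 14.6, 15.5 and 15.4 CPM in the octanal libraries and at 15.9, 14.0 and 10.5 CPM with the OC mixture, against 0.198, 1.83 and 1.38 CPM in the OC controls. Every octanal and mixture library lay above every control by a wide margin. The log2 change was 3.77 with octanal (SE 0.41, edgeR adjusted p = 1.28e-05) and 3.60 with the mixture (SE 0.41, edgeR adjusted p = 1.77e-05). With cis-3-hexenol alone Olfr653 was at 2.22, 1.68 and 2.02 CPM, and it was not called. It rose with the other aldehyde as well: it was at 7.46, 3.12 and 8.52 CPM with decanal and 10.98, 6.06 and 4.35 CPM with the AD mixture, against 1.75, 1.19 and 0.521 CPM in the AD controls. The log2 change was 2.45 with decanal (SE 0.49, edgeR adjusted p = 0.00297) and 2.61 with the AD mixture (SE 0.49, edgeR adjusted p = 0.00227). In the FM set its 12 libraries stayed between 0.984 and 1.99 CPM. Olfr646 (MOR33-2), of the same family, was lower with octanal. It was at 0, 0.177 and 0.0540 CPM with octanal against 0.297, 0.709 and 1.18 CPM in the OC controls, a log2 change of -3.18 (SE 0.89, edgeR adjusted p = 0.0127), on few counts. The coding sequences of the pair are 64.2% identical. The call for Olfr646 was lost without octanal replicate 1 or OC control replicate 3, with an edgeR adjusted p of up to 0.0628. Olfr646 shares a near-identical stretch with Olfr420, Olfr204 and Olfr344, all outside the number range, and how reads were split among them was not tested.

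The neighbouring genes Olfr598 (MOR23-4) and Olfr599 (MOR23-1) were both higher with octanal and its mixture. Olfr598 was at 15.1, 14.2 and 7.84 CPM with octanal and 20.3, 21.9 and 6.98 CPM with the OC mixture, against 1.19, 3.37 and 3.54 CPM in the OC controls. Olfr599 was at 11.5, 10.8 and 11.5 CPM with octanal and 19.5, 19.9 and 8.38 CPM with the mixture, against 0.496, 4.37 and 2.62 CPM in the controls. For both genes the octanal and mixture libraries did not overlap the controls. The log2 change of Olfr598 was 2.22 with octanal (SE 0.43, edgeR adjusted p = 0.0011) and 2.62 with the mixture (SE 0.43, edgeR adjusted p = 0.000312). That of Olfr599 was 2.20 (SE 0.48, edgeR adjusted p = 0.00262) and 2.69 (SE 0.48, edgeR adjusted p = 0.000613). With cis-3-hexenol alone Olfr598 was at 5.23, 5.96 and 5.91 CPM and Olfr599 at 6.03, 5.18 and 3.78 CPM, and neither was called. In the AD set Olfr598 was at 3.53 to 4.91 CPM and Olfr599 at 2.10 to 3.88 CPM with decanal, values that overlap the AD controls at 3.88 to 4.41 CPM and 2.52 to 4.10 CPM.

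The third gene of the MOR23 group in the row on the chromosome, Olfr597 (MOR23-2), shares 96.9% of its coding sequence with Olfr598, whereas Olfr599 shares 72.4% with Olfr598. A stretch of 120 coding bases is given for each (coding strand, GENCODE vM21 transcripts of chromosome 7, bases 301 to 420 of the Olfr598 coding sequence and the bases aligned to them), because it shows how far reads can tell the genes apart. Capitals mark bases that differ from Olfr598.
Olfr598: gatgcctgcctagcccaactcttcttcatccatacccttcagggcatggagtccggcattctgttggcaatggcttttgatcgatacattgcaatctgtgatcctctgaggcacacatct
Olfr597: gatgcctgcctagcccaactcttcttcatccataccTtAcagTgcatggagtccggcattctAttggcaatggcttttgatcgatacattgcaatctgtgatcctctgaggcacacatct
Olfr599: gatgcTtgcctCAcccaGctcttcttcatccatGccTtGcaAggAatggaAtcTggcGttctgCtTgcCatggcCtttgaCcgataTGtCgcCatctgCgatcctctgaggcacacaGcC
Within the stretch Olfr597 differs from Olfr598 at 4 bases and Olfr599 at 24, so far more stretches are shared by the first pair. Olfr597 itself was at 1.45, 2.66 and 4.49 CPM with octanal against 2.23, 3.07 and 3.74 CPM in the OC controls, with overlapping values. The sum of Olfr597 and Olfr598, which does not depend on how reads were split between them, was 16.6, 16.9 and 12.3 CPM with octanal and 26.4, 28.7 and 10.3 CPM with the OC mixture, against 3.42, 6.44 and 7.28 CPM in the OC controls. In the sum, too, the octanal and mixture libraries did not overlap the controls. Both genes also share a near-identical stretch with the pseudogene Olfr602-ps1, which is not in the sum. How reads were split with Olfr602-ps1 was not tested.

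**Figure D3:**
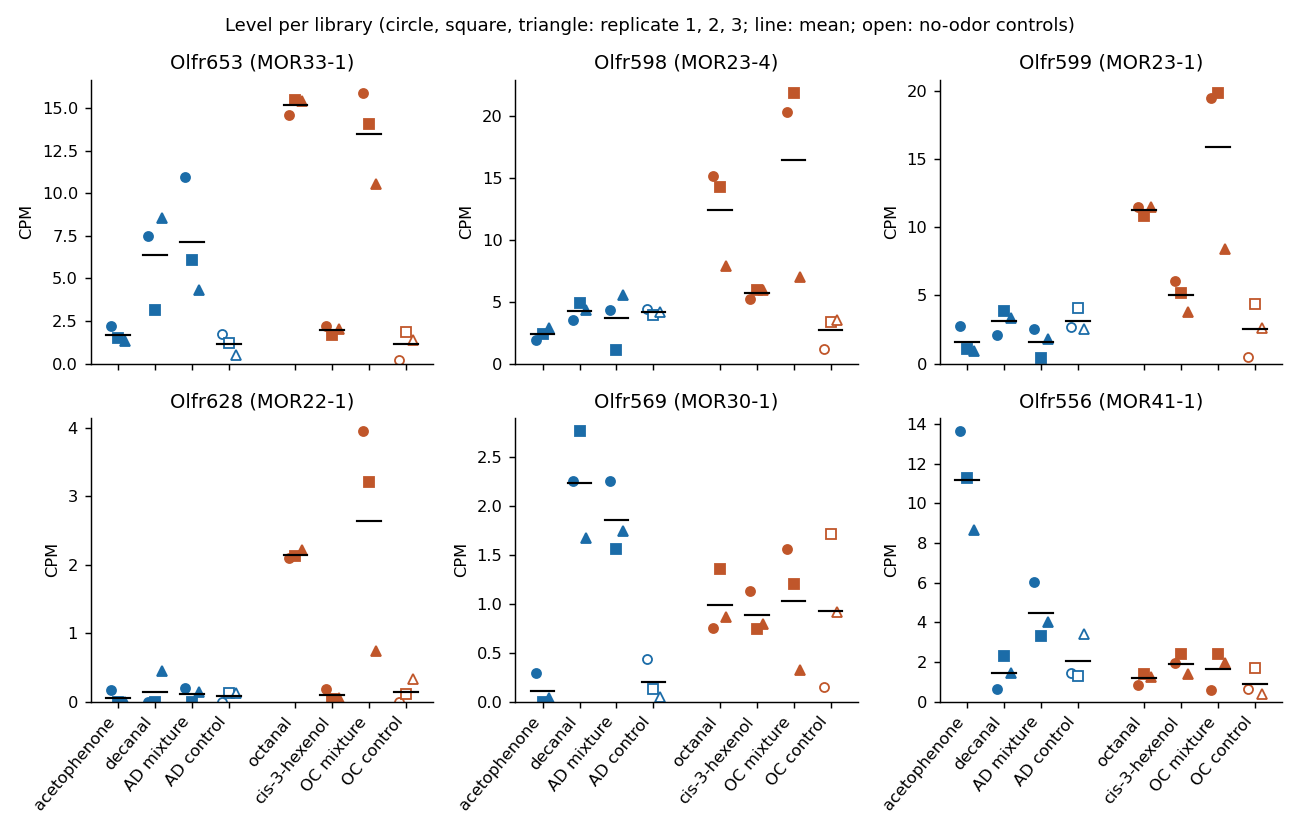
Level in CPM of 6 receptor genes in each library of the AD set (blue) and the OC set (orange), with group means as lines. Olfr653 is high with octanal, decanal and both mixtures, Olfr598, Olfr599 and Olfr628 with octanal and the OC mixture, Olfr569 with decanal and the AD mixture, and Olfr556 with acetophenone.

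Olfr628 (MOR22-1) was at 0.545 CPM or less in every library without octanal. It was at 2.10, 2.13 and 2.22 CPM with octanal and 3.95, 3.21 and 0.739 CPM with the OC mixture, against 0, 0.118 and 0.328 CPM in the OC controls. The log2 change was 3.90 with octanal (SE 0.79, edgeR adjusted p = 0.00163) and 4.19 with the mixture (SE 0.78, edgeR adjusted p = 0.000943). Its coding sequence is 97.5% identical to that of Olfr243, a receptor outside the number range, which was at 0.0501, 0 and 0.162 CPM with octanal and 0.198, 0.531 and 0.459 CPM in the controls. The sum of the pair was 2.15, 2.13 and 2.38 CPM with octanal against 0.198, 0.649 and 0.787 CPM in the controls, again with no overlap. Olfr559 (MOR11-1) had 0 counts in the 3 OC controls. It was at 1.35, 1.95 and 0.432 CPM with octanal and 3.80, 2.25 and 0 CPM with the mixture. Against a floor of 3 counts over the control group, that is at least 21.7-fold higher with octanal and at least 35.2-fold higher with the mixture (edgeR adjusted p = 0.00936 and 0.00448), and it rests on small counts. Olfr33, which is 94.2% identical to Olfr559 in coding sequence, was at 4.86, 1.54 and 1.89 CPM with octanal and 5.80, 5.99 and 1.89 CPM with the mixture, against 1.04, 1.30 and 1.05 CPM in the controls. The sum of the pair was 6.21, 3.48 and 2.32 CPM with octanal and 9.60, 8.25 and 1.89 CPM with the mixture. In the controls the sum was 1.04, 1.30 and 1.05 CPM, so it did not overlap but rose by far less than the folds of Olfr559 alone. How reads were split between the pair was not tested. Both Olfr628 and Olfr559 passed the filter in the OC set only because of libraries with octanal, alone or in the mixture. Their calls are therefore not independent of the filter.

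Olfr594 (MOR32-10) was at 6.41, 3.90 and 3.24 CPM with octanal and 7.60, 6.57 and 1.89 CPM with the OC mixture, against 1.04, 1.71 and 1.57 CPM in the OC controls. Its log2 change was 1.65 with octanal (SE 0.46, edgeR adjusted p = 0.012) and 1.89 with the mixture (SE 0.46, edgeR adjusted p = 0.00537). It lost the octanal call without octanal replicate 1 or OC control replicate 1, with an adjusted p of up to 0.0724. Olfr630 (MOR17-1) was called with octanal, at 1.502, 1.42 and 1.41 CPM against 0.149, 0.118 and 0.853 CPM in the OC controls (log2 change 1.99, SE 0.60, edgeR adjusted p = 0.0183). The call was lost without the 4 low libraries (edgeR adjusted p = 0.085) and in 3 of the 6 fits that leave out 1 library. Olfr669 (MOR34-6) and Olfr670 (MOR32-8), next to each other on the chromosome, were called with the mixture. Olfr669 was at 7.99, 3.36 and 2.18 CPM with the mixture against 1.39, 1.83 and 1.71 CPM in the controls, and Olfr670 at 6.53, 3.02 and 0.452 CPM against 0.446, 1.54 and 0.722 CPM. The values of Olfr670 overlapped. Its call (log2 change 1.88, SE 0.68, edgeR adjusted p = 0.044) was lost without OC control replicate 1 or 3 or OC mixture replicate 1 or 2, with an adjusted p of up to 0.329. That of Olfr669 (1.45, SE 0.43, edgeR adjusted p = 0.0162) was lost without OC control replicate 1 or OC mixture replicate 1, with an adjusted p of up to 0.152.

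The 9 members called higher with octanal or its mixture belong to 7 MOR families, of which MOR23 (Olfr598 and Olfr599) and MOR32 (Olfr594 and Olfr670) are there with a pair each. Their coding sequences are 54.0% to 72.4% identical over the 36 pairs, with a median of 58.7%. Of the members called higher, 6 were shared by octanal and the mixture, that is 6 of 7 and 6 of 8, and both comparisons use the same controls. The overlap over all genes is not given here, and the mixture and octanal differed for only 0.0715% of all genes. The overlap is therefore not read as a trait of these members. Without the 4 low libraries the calls with octanal became 6 higher and 7 lower, and those with the mixture 9 higher. When libraries were scaled to the 118 genes themselves, octanal gave 5 higher and none lower, and the mixture 5 higher. The share of all genes called is not given for these fits, nor for the other alternatives below. Shifts in such counts are therefore not read as a trait of the members.

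With cis-3-hexenol 2 of the 91 members tested rose. Olfr668 (MOR34-3) was at 1.27, 1.11 and 1.65 CPM with cis-3-hexenol against 0.397, 0.236 and 0.197 CPM in the OC controls, with no overlap (log2 change 2.23, SE 0.51, edgeR adjusted p = 0.0202). Olfr654 (MOR38-2) was at 1.56, 0.493 and 1.65 CPM against 0, 0.295 and 0.262 CPM (log2 change 2.74, SE 0.77, edgeR adjusted p = 0.0463). The Olfr654 call was lost whichever of the 6 libraries was left out, and the Olfr668 call in 5 of those 6 fits. The sum of Olfr668 and its near-identical copy Olfr666 was 4.20, 2.38 and 3.62 CPM with cis-3-hexenol against 1.04, 1.95 and 3.08 CPM in the controls, which overlap. The members as a whole had a median log2 change of 0.73 with cis-3-hexenol, against 0.41 for the other receptor genes and 0.05 for all genes.

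Set side by side within the OC set, octanal and cis-3-hexenol differed for 12 members, 2 higher and 10 lower with octanal, against 21.0% of all genes called either way and 8.98% called lower. Olfr653 (log2 difference 2.94, SE 0.38, edgeR adjusted p = 0.000198) and Olfr628 (4.43, SE 0.80, edgeR adjusted p = 0.00244) were higher with octanal. The lower ones were led by Olfr550 (MOR16-1), at 0.751, 0.591 and 0.432 CPM with octanal against 2.88, 2.51 and 1.81 CPM with cis-3-hexenol (log2 difference -2.01, SE 0.42, edgeR adjusted p = 0.00503). Olfr668 (-2.39), Olfr646 (-3.43) and Olfr592 (-1.56) followed. Olfr646 and Olfr592 each lost the call without octanal replicate 1 or cis-3-hexenol replicate 3, with edgeR adjusted p-values of up to 0.0682 and 0.0984. The split of these calls into higher and lower depends on the scaling. The median member was 0.90 lower on the log2 scale with octanal, the median of all genes 0.04 lower, and with libraries scaled to the 118 genes 6 members were higher with octanal and none lower. Without the 4 low libraries, 6 were higher and 13 lower. No octanal or cis-3-hexenol library was among the 4, and that fit left out OC control replicate 1 and OC mixture replicate 3.

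The OC mixture differed from cis-3-hexenol for 4 members, all higher, against 7.86% of all genes: Olfr653 (2.77, SE 0.38, edgeR adjusted p = 0.000649), Olfr628 (4.72, SE 0.80, edgeR adjusted p = 0.00346), Olfr599 (1.66, SE 0.44, edgeR adjusted p = 0.0246) and Olfr598 (1.52, SE 0.40, edgeR adjusted p = 0.0224). The last pair lost the call in 4 of the 6 fits that leave out 1 library. The mixture and octanal alone differed for 0 of 91 members with edgeR and 0 with DESeq2, with 6 at an unadjusted p under 0.05, against 0.0715% of all genes called. The interval of that difference was -0.89 to 0.54 on the log2 scale for Olfr653 and -0.41 to 1.21 for Olfr598, which does not show that the levels were equal.

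In the AD set 4 members rose with decanal. Olfr569 (MOR30-1) was at 2.25, 2.76 and 1.68 CPM with decanal and 2.26, 1.56 and 1.75 CPM with the AD mixture, against 0.437, 0.132 and 0.0434 CPM in the AD controls. The groups did not overlap, and the log2 change was 3.39 with decanal (SE 0.79, edgeR adjusted p = 0.00767) and 3.12 with the mixture (SE 0.79, edgeR adjusted p = 0.0125), a call that was lost without AD control replicate 2 (edgeR adjusted p = 0.0533). With acetophenone it was at 0.294, 0 and 0.0421 CPM. Olfr569 passed the filter in the AD set only because of libraries with decanal, alone or in the mixture. Olfr685 (MOR37-1) was at 6.08, 6.08 and 3.01 CPM with decanal against 1.43, 1.94 and 0.652 CPM in the controls (log2 change 1.91, SE 0.40, edgeR adjusted p = 0.00406). Olfr552 (MOR28-1) was at 6.95, 2.25 and 4.58 CPM with decanal against 1.95, 0.838 and 0 CPM (log2 change 2.29, SE 0.76, edgeR adjusted p = 0.0442), and its call was lost without AD control replicate 2 or decanal replicate 1 or 3. Olfr552 shares a near-identical stretch with Olfr731, Olfr986, Olfr90, Olfr1385, Olfr742 and Olfr1238, all outside the number range. How reads were split among these genes was not tested. Olfr653 and Olfr569 were the 2 members called higher with the AD mixture.

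Olfr556 (MOR41-1) was the one member called higher with acetophenone. It was at 13.7, 11.3 and 8.68 CPM with acetophenone against 1.47, 1.28 and 3.43 CPM in the AD controls, with no overlap (log2 change 2.44, SE 0.44, edgeR adjusted p = 0.00523). The call was kept in each of the 15 alternatives run for it. With the AD mixture it was at 6.03, 3.30 and 4.01 CPM, and its log2 difference from acetophenone alone was -1.33 (SE 0.41, edgeR adjusted p = 0.0296), lost in 4 of the 6 fits that leave out 1 library. It differed from decanal by 2.93 (SE 0.45, edgeR adjusted p = 0.000328), with 0.665, 2.30 and 1.43 CPM there.

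Acetophenone and decanal differed for 12 members, 1 higher and 11 lower with acetophenone, against 16.5% and 12.9% of all genes. Besides Olfr569 (-4.23, SE 0.85), Olfr653 (-1.90, SE 0.47) and Olfr685 (-1.78, SE 0.40) the lower ones included Olfr661 (MOR40-4), at 0.420, 0.269 and 0.337 CPM with acetophenone against 2.71, 3.27 and 3.99 CPM with decanal (log2 difference -3.26, SE 0.61, edgeR adjusted p = 0.00131). Olfr629 (MOR26-2) was at 0.336, 0 and 0.0843 CPM with acetophenone against 1.28, 2.04 and 1.13 CPM with decanal (-3.34, SE 0.81, edgeR adjusted p = 0.007). The AD controls lay between for both, at 0.738 to 1.81 CPM and 0.596 to 0.912 CPM. The AD mixture was higher than acetophenone for 7 members and lower for 1, against 11.3% and 14.4% of all genes, with Olfr642 (MOR13-6; 3.75, SE 0.86, edgeR adjusted p = 0.00558), Olfr569, Olfr629 and Olfr653 leading. It differed from decanal for 0 of 82 members with edgeR and 0 with DESeq2, with 5 at an unadjusted p under 0.05, against 0.287% of all genes. With libraries scaled to the 118 genes, acetophenone against decanal gave 1 higher and 6 lower, and without the 4 low libraries 1 higher and 16 lower. No acetophenone or decanal library was among the 4, and that fit left out AD mixture replicate 2.

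**Figure D4:**
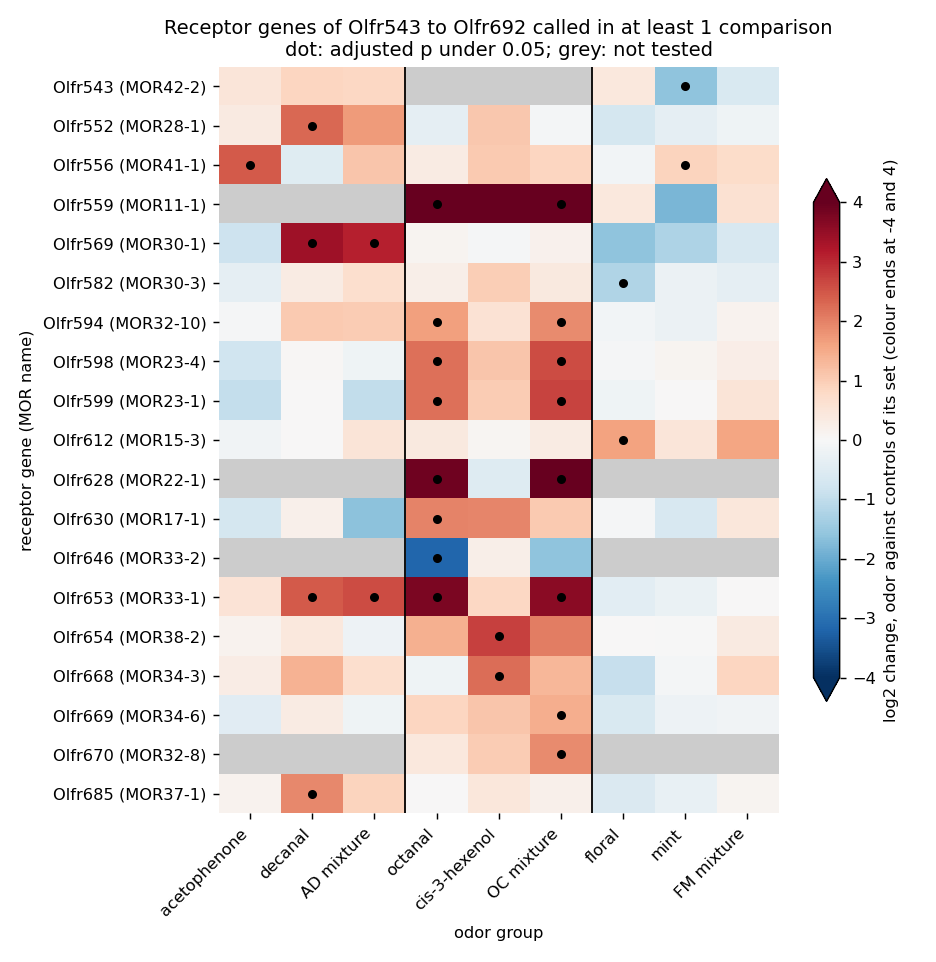
Log2 change against the controls of the set (colour) for the 19 members called at least once in the 9 odor-control comparisons, with a dot where the adjusted p was under 0.05 and grey where the gene was not tested. Calls gather in the octanal and OC mixture columns, Olfr653 is the one gene with 4 dots, and the colours of Olfr559 in the OC set are fitted values against controls at 0 counts, which give no size.

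Octanal and decanal are aldehydes that differ in the length of the chain, and they were given in the same volume and for the same time but in different sets. Each was therefore taken against its own controls and the difference of the responses was tested in a joint fit of both sets. Of 97 members tested, 2 responded more to octanal and 7 less, against 16.1% and 13.1% of all genes. Olfr598 (difference of log2 changes 2.15, SE 0.63, edgeR adjusted p = 0.0123) and Olfr599 (2.17, SE 0.75, edgeR adjusted p = 0.0334) were higher with octanal. Olfr661 (-2.55, SE 0.72, edgeR adjusted p = 0.00975), Olfr569 (-3.30, SE 1.08, edgeR adjusted p = 0.0241), Olfr646 (-5.36, SE 1.75, edgeR adjusted p = 0.0237) and Olfr649 (MOR31-7; -3.82, SE 1.34, edgeR adjusted p = 0.0342) were lower. The Olfr598 call was kept in all 19 alternatives run and the Olfr661 call in 18. That of Olfr569 was kept in 14, that of Olfr599 in 12, that of Olfr646 in 11 and that of Olfr649 in 10. Leaving out 1 library ended the call in 4 of 12 fits for Olfr569, 7 for Olfr599, 6 for Olfr646 and 7 for Olfr649, and the replicate block ended those of Olfr646 and Olfr649. For Olfr653, which rose with both aldehydes, the difference was 1.30 with an interval of -0.11 to 2.7002, and it was not called (edgeR adjusted p = 0.158). With libraries scaled to the 118 genes, Olfr598 and Olfr599 counted among 2 higher and none was lower. Sets and aldehydes cannot be told apart beyond what the controls of each set remove.

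**Figure D5:**
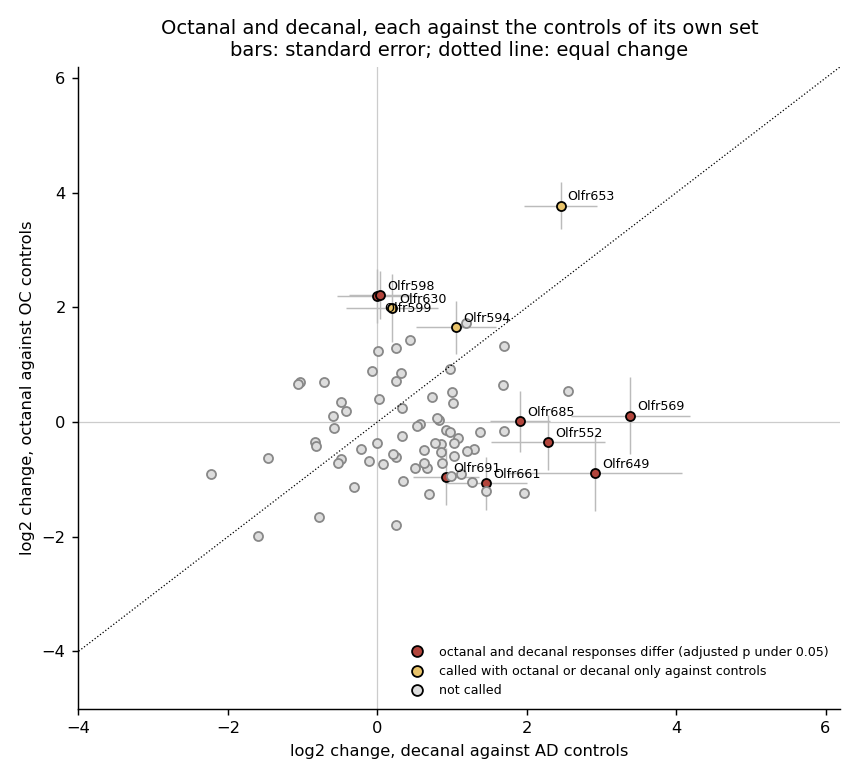
Log2 change with octanal against the OC controls (vertical) and with decanal against the AD controls (horizontal) for the 79 members tested in both sets, with standard errors for the named genes and a dotted line of equal change. Olfr598 and Olfr599 lie near 0 for decanal and above 2 for octanal, Olfr569, Olfr552 and Olfr685 lie to the right near 0 for octanal, and Olfr653 is high on both axes.

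Few of the 118 genes were called with the fragrances. Olfr612 (MOR15-3) was at 1.36, 1.40 and 0.615 CPM with floral against 0.142, 0.676 and 0.279 CPM in the FM controls (log2 change 1.62, SE 0.49, edgeR adjusted p = 0.0406), with overlap. Olfr582 (MOR30-3) was at 0.896, 0.972 and 0.943 CPM against 2.35, 2.22 and 1.87 CPM (-1.19, SE 0.35, edgeR adjusted p = 0.0362), with no overlap. Both have a near-identical copy: the sum of Olfr612 and Olfr611 was 1.48, 1.94 and 0.656 CPM with floral against 0.427, 0.939 and 0.439 CPM in the controls, and the sum of Olfr582 and Olfr584 was 1.48, 1.205 and 1.23 CPM against 2.78, 2.67 and 2.63 CPM. With mint, Olfr556, the gene that rose with acetophenone, was at 4.12, 2.38 and 3.65 CPM with mint against 1.71, 1.88 and 1.79 CPM in the controls (0.91, SE 0.26, edgeR adjusted p = 0.0365). Olfr543 (MOR42-2) was at 0.144, 0.195 and 0.337 CPM with mint against 1.03, 0.601 and 0.399 CPM (-1.61, SE 0.48, edgeR adjusted p = 0.0447). All 4 calls were lost in at least 4 of the 6 fits that leave out 1 library, with adjusted p-values of up to 0.229, and the Olfr582 call in all 6. The FM mixture gave 0 of 83 with edgeR, 1 with DESeq2 and 5 at an unadjusted p under 0.05. It differed from floral and from mint for 0 members each with edgeR and with DESeq2, with 12 and 3 at an unadjusted p under 0.05, against 0.120% and 0.104% of all genes. Floral and mint differed for 0 members with both tools, with 7 at an unadjusted p under 0.05, against 0.354% of all genes.

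A pair of members with a known ligand was not called in any of the 9 comparisons. Olfr544 (MOR42-3), a receptor for azelaic acid, was at 0.971 to 3.63 CPM with decanal against 1.499 to 2.26 CPM in the AD controls. It was at 1.54 to 3.25 CPM with octanal against 0.919 to 1.89 CPM in the OC controls. Olfr558 (MOR18-1), the mouse counterpart of the human acid receptor OR51E1, was at 0.901, 0.118 and 0.2702 CPM with octanal against 1.09, 1.89 and 1.64 CPM in the OC controls. Its log2 change of -1.79 (SE 0.67) narrowly missed the threshold (edgeR adjusted p = 0.0517). None of the pure odorants is an acid, and whether that bears on the missing calls was not tested.

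The signalling cascade that olfactory neurons share was also measured. Of 12 transduction genes, among them Gnal, Adcy3, Cnga2 and Omp, 10, 6 and 6 rose with acetophenone, decanal and the AD mixture, 12, 8 and 12 for octanal, cis-3-hexenol and their mixture, and 5, 10 and 8 with floral, mint and the FM mixture. None was called lower. With libraries scaled to all receptor genes the counts were 2, 3 and 3, then 12, 0 and 10, and 6, 9 and 5 in the same order, again with none lower. With libraries scaled to the 118 genes the counts were 8, 0 and 2, 3, 0 and 1, and 3, 3 and 1, with none lower, and the median change turned to -0.13 with decanal and -0.05 with cis-3-hexenol. On TMM scaling their median log2 change was 1.40 with octanal, where the median of the 118 genes was -0.16 and that of all genes was -0.04. Of 10 genes of receptor choice and trafficking, 4 were higher and none lower with acetophenone, 2 higher and 2 lower with decanal, and 2 higher and 3 lower with the AD mixture. In the OC set 7, 3 and 6 were higher and none lower for octanal, cis-3-hexenol and their mixture, and in the FM set 2, 4 and 5 were higher and 1, 0 and 0 lower for floral, mint and the blend. These directions depend on the scaling: with libraries scaled to all receptor genes cis-3-hexenol had 0 higher and 2 lower. In the dorsal zone list 6 of 10 genes passed the filter. With acetophenone, decanal and the AD mixture 1 each rose, and 1 fell with decanal. With octanal 2 rose, with cis-3-hexenol 1 fell, with the OC mixture 2 rose and 1 fell, and no FM odor gave a call. Genes of red blood cells were lower in all 3 OC odor groups than in the OC controls, 6 of 6 in each comparison and under each of 4 scalings, with Hbb-bs, a haemoglobin gene, at 2816 to 11522 CPM in the odor groups against 30289 to 34503 CPM in the controls. With floral 4 of 6 rose. Of 4 genes of osteoclasts and bone, 4, 3 and 4 were lower with octanal, cis-3-hexenol and their mixture. With octanal 3 of 3 ensheathing glia genes and 3 of 3 basal cell genes were lower, with cis-3-hexenol 0 of each, and with the OC mixture 2 and 1, and with libraries scaled to the 118 genes no gene of the last pair of lists was called in the OC set. In the AD set no red blood cell gene was called against the controls. On TMM scaling 6 of 6 were lower with acetophenone than with decanal, and 6 of 6 were higher with the AD mixture than with acetophenone. In the octanal against the decanal response 6 of 6 red blood cell genes, 4 of 4 bone genes and 3 of 3 basal cell genes were lower. Shares of all genes not given above were 6.42% called higher and 3.22% called lower with the FM mixture. Called lower were 1.27%, 11.5% and 10.4% of all genes with acetophenone, decanal and the AD mixture. With cis-3-hexenol and the OC mixture 3.16% and 14.8% were called lower. The part of these lists in the member results was not tested.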

How the data were processed

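RNA precipitated with an antibody to phosphorylated S6 was sequenced from 36 olfactory epithelium libraries. The deposited files hold expected counts for each gene, estimates that need not be whole: 11.1% to 16.4% of the values of a library were fractional. Per the submitters' processing notes, the tools were STAR 2.7.10b, Salmon 1.10.1 and R 4.4.2 and the build was GRCm39; the role of each tool and the gene annotation are not given in the sources used here. Library preparation was stranded, per the labels' protocols. Names come from GENCODE vM21, a GRCm38 annotation, so no positions are printed. It named 52081 of 57010 identifiers, and the others held 0.275% to 0.642% of the counts.

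Expected counts were rounded. Each set of 12 libraries was fitted alone with edgeR 4.0.16 in R 4.3.3 (filterByExpr with a minimum count of 10 and a minimum total of 15, TMM scaling, glmQLFit and glmQLFTest, prior count 0.125, 2-sided), because the set is the batch. Benjamini-Hochberg adjustment ran over every gene that passed the filter, with calls made below an adjusted p of 0.05. For octanal against decanal, 1 model of 24 libraries in 8 groups was used. Standard errors come from the change and its F statistic, and intervals are 95% intervals on the t distribution with the degrees of freedom of the fit. Alternatives used edgeR with other settings and DESeq2 1.42.0. The method was tested on simulated data. No 2 libraries of a group agreed within sampling noise. Near-identical copies are receptor transcripts that match at 95% or more over at least 200 bases (blastn 2.17.0); 36 members have one. Coding identity was computed with Biopython 1.88.

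The members and gene lists were chosen with earlier results of these data known. Named members are the up to 6 called higher and 3 called lower with the smallest p for each odor against controls. They also include the up to 4 each way in the other comparisons, and Olfr544 and Olfr558. Olfr597, Olfr630, Olfr669, Olfr670, Olfr672 and the copies of named members were named after their values were seen.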

Additional observations from a re-analysis of the deposited data

How the results depend on the processing

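Of 1076 values of named genes under an alternative, 921 kept their direction and side of the threshold, 146 kept the direction and lost the call, 9 gained it and 0 reversed. Counts of members called in either direction moved as follows, and the cause was not tested. The share of all genes called under each alternative is not given here. The shifts are therefore not read as results about the members. Acetophenone gave 1, and 2 without a filter, with the 6 libraries compared or with all 36, and 3 with DESeq2. Decanal gave 4, against 7 with DESeq2 and 10 with all 36. The AD mixture gave 2, against 5 without a filter and 4 with DESeq2. Acetophenone against decanal gave 12, and 20 with DESeq2. Octanal gave 8, and 4 without near-identical copies. Cis-3-hexenol gave 2, against 12 without a filter, 5 with 6 or with 36 libraries and 1 without copies or with the replicate block. The OC mixture gave 8, against 15 without a filter and 5 without copies. The mixture against cis-3-hexenol gave 4, then 9 and 2 under the same changes, and octanal against cis-3-hexenol 12, then 25 and 7. Floral gave 2, against 0 with scaling to receptor genes, with all 36 or without copies, and 1 with the block, DESeq2 or 6 libraries. Mint gave 2, and 0 with scaling to receptor genes, the block, 6 or 36 libraries. The FM mixture gave 0, and 1 without a filter, with DESeq2 or with 6 libraries. Floral against mint gave 0, and 2 without a filter.

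The next alternatives were chosen after seeing the data. Scaling to the 118 genes moved the median of all genes by up to 0.89 on the log2 scale; it gave 1 call for the AD mixture against decanal, 7 for acetophenone against decanal, 5 for octanal and for the OC mixture, 6 for octanal against cis-3-hexenol, 1 for cis-3-hexenol and for floral, 0 for mint and 2 for the octanal against the decanal response, which was 9 as reported. Without the 4 libraries low in members the counts were 13 for octanal, 1 for cis-3-hexenol, 7 for the OC mixture against cis-3-hexenol, 19 for octanal against cis-3-hexenol, 1 for floral and for the FM mixture, and 14 for the 2 aldehyde responses. Each fit left out only those of its own set or sets, also where the groups compared held none of them. Octanal against cis-3-hexenol, 2 higher and 10 lower, became 5 higher and 4 lower with scaling to receptor genes.

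Leaving out 1 library gave 1 to 2 calls for acetophenone, 3 to 5 for decanal, 1 to 3 for the AD mixture, 5 to 9 for the AD mixture against acetophenone, 8 to 12 for acetophenone against decanal, 6 to 9 for octanal, 0 to 1 for cis-3-hexenol, floral and mint, 6 to 13 for the OC mixture, 4 to 15 for octanal against cis-3-hexenol, 2 to 7 for the OC mixture against cis-3-hexenol, 0 to 2 for the FM mixture and 3 to 13 for the aldehyde responses. The mixtures against decanal and octanal, and the FM groups against each other, stayed at 0.

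Replicate numbers were not shown to pair the samples: same-numbered deviations correlated at -0.14 to 0.14 in the AD set, -0.09 to 0.25 in the OC set and -0.29 to 0.17 in the FM set. With the replicate block octanal gave 7 higher and 2 lower, the OC mixture 7 higher and decanal 5 higher. On depth, 23 of 118 members passed the filter on low counts in no set and were not tested.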

Other observations

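Of the 11 class I receptor genes whose symbols lie outside the number range, 8 passed the filter in the OC set. With octanal 2 of them rose, and with the OC mixture 3 rose, against 17.9% and 17.7% of all genes called higher. Olfr69 was at 5.31, 3.66 and 1.24 CPM with octanal and 16.6, 6.38 and 0.370 CPM with the mixture, against 0.0496, 0.768 and 0.262 CPM in the OC controls. Its log2 change was 3.26 with octanal (SE 1.01, edgeR adjusted p = 0.0218) and 4.45 with the mixture (SE 1.00, edgeR adjusted p = 0.00354). Olfr65 was at 5.76, 3.60 and 4.38 CPM with octanal against 1.09, 1.71 and 2.23 CPM in the OC controls (log2 change 1.46, SE 0.47, edgeR adjusted p = 0.0275). Olfr33, which shares a near-identical stretch with Olfr559, was called with the mixture (log2 change 2.00, SE 0.48, edgeR adjusted p = 0.00507) and missed the threshold with octanal (1.29, SE 0.48, edgeR adjusted p = 0.0504). In OC mixture replicate 3, Olfr69, Olfr65 and Olfr33 were each at their lowest value of that group, as most of the 118 genes were. In the AD set 7 of the 11 passed the filter and in the FM set 5, and none of these was called against controls there.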
